A study of Mus musculus with 4 samples.

Results

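The genes described here were Trh, the gene of the thyrotropin-releasing hormone (TRH) precursor, and the genes whose products cut, trim, modify, bind or degrade that hormone. They comprised Trh itself, the TRH receptor gene Trhr, the TRH-degrading enzyme gene Trhde, the proprotein convertase genes Pcsk1, Pcsk2 and Furin, the carboxypeptidase gene Cpe, the amidating enzyme gene Pam and the glutaminyl cyclase gene Qpct. These 9 genes were taken by symbol from the 23235 gene symbols measured, and each was found once. Trh was chosen by its lower level in the treated cells of the same comparison, and the other 8 genes for their roles, with earlier results of these data known. The values of these 9 genes between conditions are therefore given as a description, without p-values, and whether they passed the threshold of the fit over all genes is given as a count from which nothing is read.

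The cells were HG165, a line of mouse haploid embryonic stem cells (haESCs) derived as androgenetic cells from C57BL/6 mice, so that every sample carried a paternal genome in a single copy when haploid. Libraries labelled DMSO came from cells given the solvent, and libraries labelled RDF from cells given 3 compounds, namely Repsox, which inhibits TGF-β pathways, DMH1, which inhibits the BMP4 pathway, and Forskolin, which activates adenylate cyclase. There were 2 mRNA libraries of each condition. Doses of these compounds are stated for a screen of a larger mixture on other lines, whereas doses, treatment times and ploidy at harvest are not stated for the sequenced samples themselves in the sources used here, so ploidy and treatment cannot be told apart. All 4 libraries came from 1 line, and nothing states that replicates were separate cultures, so that p-values measure only the spread between these samples, which may be technical.

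TRH is a tripeptide, made in the brain and in several other tissues as a long precursor that holds several copies of the hormone sequence. Convertases cut the precursor at pairs of basic residues, a carboxypeptidase trims the basic residues left at the end, the exposed glutamine is closed to pyroglutamate, and the glycine serves as the donor of the amide group. The finished peptide acts through a receptor that couples to phospholipase C, and an ectoenzyme removes it outside the cell. It is best known as the hypothalamic signal that makes the pituitary release thyrotropin.

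The hormone copies can be read in the gene itself. Trh lies on the minus strand of chromosome 6 at positions 92192055 to 92194644 of the mouse assembly NCBIM37 (the assembly of UCSC mm9), and its coding sequence has 768 bases, or 256 codons, without the stop codon. The search for codons of glutamine, histidine, proline and glycine in a row found 5 copies, all within the last of 3 exons and all coding. They are shown because they carry every step of the processing described next. Capitals mark the 4 hormone codons, and lower case marks the pair of codons on either side.

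Copy 1 (chr6:92193082-92193105, from codon 77 counted from the first methionine): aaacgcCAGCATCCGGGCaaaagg

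Copy 2 (chr6:92192986-92193009, from codon 109): aaacgaCAGCACCCTGGCcgacgt

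Copy 3 (chr6:92192851-92192874, from codon 154): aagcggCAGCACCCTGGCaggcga

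Copy 4 (chr6:92192797-92192820, from codon 172): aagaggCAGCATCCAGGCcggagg

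Copy 5 (chr6:92192704-92192727, from codon 203): aaacgtCAGCATCCTGGCaaaagg

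Each codon number is that of the first hormone codon. All 5 copies had codons for lysine and arginine just before the hormone. After the hormone, 2 copies had codons for lysine and arginine and 3 had codons for a pair of arginines. The 4 hormone codons were spelled in 4 different ways over the 5 copies, and no pair of copies had the same 24 bases.

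The bases before the start of Trh are shown because cyclic AMP, which Forskolin raises, and TGF-β signals, which Repsox blocks, reach genes through factors that bind promoters. The sequence is that of RefSeq for the 250 bases before the gene's start, on the minus strand of GRCm38.p6, a later assembly than the one above, at chr6:92244651-92244900. Capitals mark the matches to the motifs described next.

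Trh promoter: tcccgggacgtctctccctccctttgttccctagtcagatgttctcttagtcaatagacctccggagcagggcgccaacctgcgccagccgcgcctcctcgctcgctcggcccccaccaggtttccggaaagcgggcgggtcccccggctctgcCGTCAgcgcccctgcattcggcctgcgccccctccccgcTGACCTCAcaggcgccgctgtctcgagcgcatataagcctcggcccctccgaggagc

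Both strands were searched for 4 motifs, and the shares are of the 32851 promoter windows of the same length in the RefSeq table. The full cyclic AMP response element TGACGTCA was in 1.55% of windows, among them that of Pcsk1, and was not in that of Trh. Its short form TGACG, which the full element contains, was in 17.8% of windows. In Trh it lay on the opposite strand, written above as CGTCA, 96 to 92 bases before the start. It was also in the windows of Pcsk1 and Pcsk2 and in 1 of the 2 windows of Furin. The element TGACCTCA, known from TRH promoters as a site of thyroid hormone receptor and CREB binding, was in 1.94% of windows and, of these genes, in Trh alone, 57 to 50 bases before the start. GTCTAGAC, the palindrome bound by Smad proteins, was in 0.167% of windows and in none of these genes. No short form of this palindrome was searched, whereas the short form of the cyclic AMP element was. The searches were thus unequal, and the presence of one kind of match cannot be set against the absence of the other. The table had windows for 6 of the 9 genes, and Trhr, Cpe and Qpct had no entry. The Trh window was 68.8% G and C, where the median window was 52.4%. A match is a run of letters and not a measured binding site.

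Levels are given in FPKM, the fragments of a gene scaled to the length of its transcript and to the depth of the library, so that genes of different length can be compared. The depth estimated from the steps of low values was 9600000 to 12420000 fragments per library. Of these steps 41.3% to 45.6% lay within 0.1 of a whole fragment, where an even spread would give 20%. The depth was chosen to fit the same steps, so this share is no independent check of it. Fragments given for a gene are derived from this depth and its longest annotated transcript, and are approximate. Of the 9 genes, 5 averaged 1 FPKM or more across the libraries and entered the fit over 11733 genes, namely Trh, Furin, Cpe, Qpct and Pam. The other 4, Trhr, Trhde, Pcsk1 and Pcsk2, were under that level. In bulk RNA, fewer cells that express a gene and less of its RNA per cell cannot be told apart.

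Trh was abundant in the DMSO libraries and far lower in the RDF libraries. It measured 138 FPKM in DMSO replicate 1, 138 in DMSO replicate 2, 21.9 in RDF replicate 1 and 22.1 in RDF replicate 2. The conditions did not overlap, and the libraries of one condition were nearly equal. The mean was 138 ± 0.175 FPKM (SD, n = 2) with DMSO and 22.0 ± 0.184 FPKM (SD, n = 2) with RDF, a 6.28-fold lower level. On the log2(FPKM + 1) scale, which understates changes of low genes, the difference was -2.60 (SE 0.0512), and 11 of the genes in the fit had a more negative one. Trh stood at rank 714 of those genes by mean level with DMSO and at rank 3679 with RDF. The values correspond to about 1840 and 2140 fragments in the DMSO libraries and about 376 and 347 in the RDF libraries, so Trh mRNA was still well detected with RDF. Counting of so many fragments alone would spread libraries by more than the SDs above. Those SDs, each from 2 libraries, are therefore no measure of precision.

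Of the 3 convertases among the 9 genes, only Furin was above 1 FPKM, and its level did not separate the conditions. Furin, which works in the constitutive secretory pathway, lies on the minus strand of chromosome 7 at 87533471 to 87550322 (NCBIM37, as are all gene positions that follow). It measured 17.1 and 17.6 FPKM in DMSO replicates 1 and 2 and 17.3 and 17.6 FPKM in RDF replicates 1 and 2. The RDF values lay within the range of the DMSO values, with a difference of 0.00 on the log2(FPKM + 1) scale (SE 0.0616). The mean was 17.4 ± 0.354 FPKM with DMSO and 17.4 ± 0.181 FPKM with RDF (SD, n = 2 each). With RDF, Furin and Trh were thus at similar levels per length, where with DMSO Trh was far above Furin.

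Pcsk1 and Pcsk2 encode the convertases of the regulated secretory granules of neurons and endocrine cells, and they are the enzymes best known for processing the TRH precursor. Pcsk1 (chromosome 13, plus strand, 75227274 to 75269946) measured 0.191 and 0.252 FPKM with DMSO and 0.521 and 0.248 FPKM with RDF. RDF replicate 1 was highest and RDF replicate 2 lay between the DMSO libraries, so the conditions overlapped, at about 4.91 to 17.3 fragments per library. Pcsk2 (chromosome 2, plus strand, 143371892 to 143642021) was listed at 0 in DMSO replicate 1 and measured 0.0358 FPKM in DMSO replicate 2, 0.0168 in RDF replicate 1 and 0.0546 in RDF replicate 2. That is at most about 2.92 fragments in a library, and no difference was detectable at this depth.

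Cpe, which encodes the carboxypeptidase that trims the basic residues after the cut, was higher in both RDF libraries. The gene lies on the minus strand of chromosome 8 at 67071355 to 67171837. It measured 9.9 FPKM and 10.4 FPKM in DMSO replicates 1 and 2, and 16.2 FPKM and 15.4 FPKM in RDF replicates 1 and 2. The conditions did not overlap, and the mean went from 10.2 ± 0.362 FPKM with DMSO to 15.8 ± 0.515 FPKM with RDF (SD, n = 2 each), a ratio of 1.56. The difference was 0.59 on the log2(FPKM + 1) scale (SE 0.0699), and 417 genes of the fit had a more positive one.

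Pam and Qpct make the 2 ends of the finished peptide. Qpct, whose product closes the glutamine at the start to pyroglutamate (chromosome 17, plus strand, 79451246 to 79489583), measured 8.76 and 7.98 FPKM in DMSO replicates 1 and 2 and 5.04 and 5.79 FPKM in RDF replicates 1 and 2. Both RDF libraries were below both DMSO libraries, and the mean was 8.37 ± 0.552 FPKM with DMSO and 5.41 ± 0.534 FPKM with RDF (SD, n = 2 each), a 1.55-fold lower level. The difference was -0.55 on the log2(FPKM + 1) scale (SE 0.0965). Pam, whose product turns the glycine at the end into the amide (chromosome 1, minus strand, 99691691 to 99992223), was the lowest of the 5 genes in the fit in all 4 libraries. It measured 2.8 and 2.85 FPKM with DMSO and 3.23 and 3.72 FPKM with RDF, without overlap, and its difference was 0.22 on the log2(FPKM + 1) scale (SE 0.102).

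Trhr and Trhde, which encode the receptor and the ectoenzyme, were at or near 0. This does not extend to every peptidase that can act on TRH, and Prep, given below, was well above that level. Trhr, the receptor gene (chromosome 15, plus strand, 44027681 to 44067458), was listed at 0 in all 4 libraries. Trhde, the gene of the ectoenzyme that removes pyroglutamate from TRH (chromosome 10, minus strand, 113835879 to 114239363), measured 0.0778 FPKM in DMSO replicate 1 and 0.0288 FPKM in RDF replicate 1 and was listed at 0 in the other library of each condition. These values correspond to about 4.27 and 2.04 fragments, and the conditions overlapped.

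**Figure D1:**
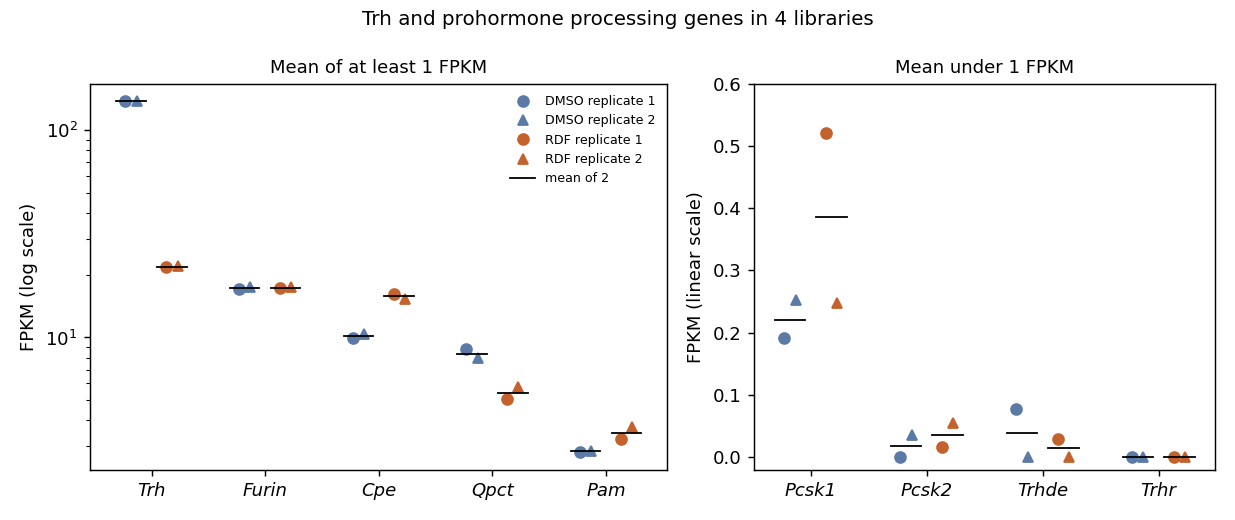
FPKM of the 9 genes in the 4 libraries, on a log axis for the 5 genes averaging 1 FPKM or more and on a linear axis for the 4 genes under it, with circles for replicate 1, triangles for replicate 2 and bars for the mean of 2 libraries. Trh lies at 138 FPKM in both DMSO libraries and at 21.9 and 22.1 FPKM in the RDF libraries, Cpe lies higher and Qpct lower with RDF, Furin lies at one level, and Trhr is listed at 0 throughout.

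With DMSO the order of the 5 genes by level per length was Trh, Furin, Cpe, Qpct and Pam, and neighbours in that order did not overlap between libraries. With RDF the order was the same, and the 5 genes again did not overlap, but the 3 highest, Trh, Furin and Cpe, lay between 15.4 and 22.1 FPKM. Among the 5 genes, 1 was called higher in RDF (Cpe) and 2 lower (Trh and Qpct) at a limma adjusted p under 0.05, where 13.3% of all genes in the fit were called higher and 8.28% lower. Both RDF values were above both DMSO values for 2 of the 5 (Cpe and Pam) and below them for 2 (Trh and Qpct), where this held for 37.1% and 28.5% of all genes in the fit. Without RDF replicate 1, and also without RDF replicate 2, Qpct was not called. These counts carry no weight, since the genes were chosen from the same comparison.

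Genes of the wider pathway were not used to choose the 9 genes, although the lists were drawn up with earlier results of these data known. They were tested with limma over all 11733 genes, of which the median difference was 0.03 on the log2(FPKM + 1) scale. All the differences below are RDF minus DMSO on that scale. With 2 libraries in each condition the smallest two-sided p of an exact permutation test is 0.333, and such tests were not used.

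Among 18 other convertases and trimming enzymes, 13 passed the level of 1 FPKM. Of these, 4 rose and none fell, beside 13.3% and 8.28% of all genes, with a median difference of 0.03. Cpm, which encodes a membrane carboxypeptidase that removes basic residues from the end of peptides, measured 1.88 and 1.99 FPKM in the DMSO libraries and 4.85 and 5.03 FPKM in the RDF libraries. It rose by 1.02 (SE 0.0931, limma adjusted p = 0.00228), and the conditions did not overlap. Pcsk1n, which encodes proSAAS, an inhibitor of the Pcsk1 product, rose by 0.45 (SE 0.0858, limma adjusted p = 0.0177), at 24.5 and 23.6 FPKM with DMSO and 30.6 and 35.9 FPKM with RDF. Its level per length was therefore far above that of Pcsk1 in every library. Pcsk6, a convertase of the constitutive pathway, rose by 0.43 (SE 0.0744, limma adjusted p = 0.0128), and Mbtps1, the site-1 protease, rose by 0.34 (SE 0.0605, limma adjusted p = 0.0133). The most abundant genes of this list that were not called were Ctsl, encoding cathepsin L (difference -0.17, 254 FPKM with DMSO), and Nrd1, encoding a peptidase that cuts at basic pairs (difference 0.02, 26.9 FPKM with DMSO). Without RDF replicate 1 the count of called genes was 2 and without RDF replicate 2 it was 1, and Cpm was called in all 11 alternative settings.

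Among 21 genes of granins and the regulated secretory granule, 11 were tested. Of these, 3 rose and 1 fell, beside 13.3% and 8.28% of all genes, with a median difference of 0.05. One of those that rose, Syt7, a calcium sensor for exocytosis, measured 0.93 ± 0.0357 FPKM with DMSO and 2.48 ± 0.342 FPKM with RDF (SD, n = 2 each). It passed the level filter through its RDF libraries, so no p is given for it. Vgf, a granin-like precursor, rose by 0.61 (SE 0.155, limma adjusted p = 0.0392) from 1.01 ± 0.389 FPKM to 2.04 ± 0.039 FPKM (SD, n = 2 each), and the remaining one was Pcsk1n, given above. Ptprn, a membrane protein of dense-core granules, measured 6.05 and 6.03 FPKM with DMSO and 4.65 and 4.81 FPKM with RDF and fell by 0.30 (SE 0.0813, limma adjusted p = 0.0483). Chga, the gene of chromogranin A, and Rab27a, a GTPase of secretory vesicles, were the most abundant genes not called, with differences of -0.08 and -0.16. Of the 11 alternative settings, 7 lost the call of Ptprn, 5 that of Vgf, 2 that of Pcsk1n and 1 that of Syt7. Leaving out any library lowered the number of calls over all genes as well. Such a loss therefore cannot show that a call rested on that library.

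Of 65 other peptide hormone precursors, 64 were in the data, 16 of them at 0 in all 4 libraries, and 21 were tested, of which 4 rose and 4 fell, beside 13.3% and 8.28% of all genes, with a median difference of -0.11. Without the filter on low values 2 of them were called. Calca, the precursor of calcitonin and CGRP, measured 32.2 and 35.4 FPKM with DMSO and 18.2 and 18.1 FPKM with RDF and fell by 0.86 (SE 0.0676, limma adjusted p = 0.00156). Cck, the cholecystokinin precursor, measured 3.26 and 2.92 FPKM with DMSO and 7.41 and 6.88 FPKM with RDF and rose by 0.99 (SE 0.0934, limma adjusted p = 0.00243). These calls, opposite in direction, were kept in all 11 alternative settings, and in neither gene did the conditions overlap.

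Gast, the gastrin precursor, counted among those that fell, measured 2.29 and 3.26 FPKM with DMSO and 0.311 and 1.37 FPKM with RDF. Its RDF libraries were far apart, it passed the level filter through its DMSO libraries, and its call was lost in 5 of the 11 alternative settings, so no p is given for it. Nmb, the neuromedin B precursor, rose by 0.60 (SE 0.124, limma adjusted p = 0.0217), and Npb, the neuropeptide B precursor, fell by 0.57 (SE 0.106, limma adjusted p = 0.0157). The other called genes, named after their values were seen, were Nppb, the precursor of brain natriuretic peptide, which fell, and Adm and Insl3, the precursors of adrenomedullin and insulin-like 3, which rose. The call of Adm was lost in 8 of the 11 alternative settings, median-ratio scaling and quantile normalization among them. Those of Nppb, Insl3, Nmb and Npb were lost in 4 each. Pyy and Rln3 were the genes named among those not called, with differences of -0.22 and -0.23. With DMSO the highest level per length among the called precursors was that of Adm, at 46.4 ± 2.79 FPKM (SD, n = 2), below that of Trh. The number called was 5 without DMSO replicate 2, 2 without RDF replicate 1 and 4 without RDF replicate 2.

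**Figure D2:**
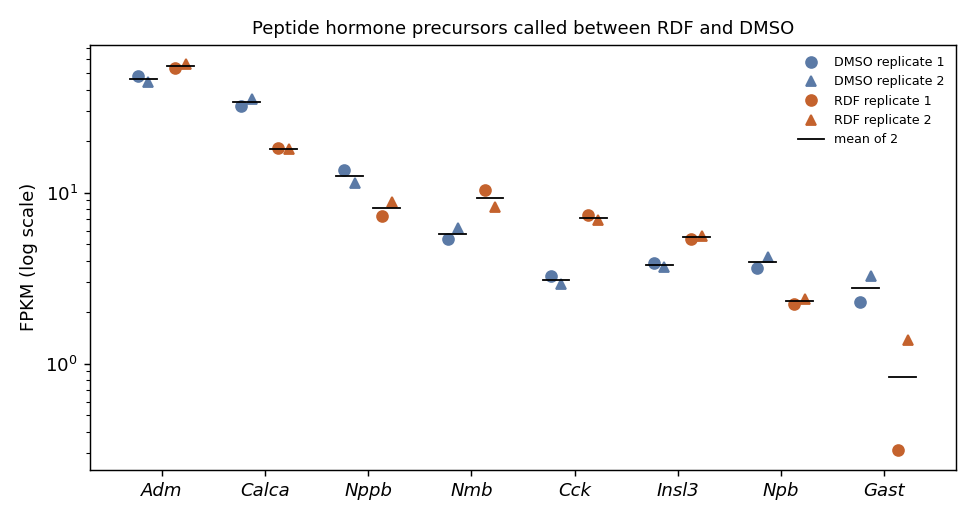
FPKM on a log axis of the 8 other peptide hormone precursors that were called between RDF and DMSO, in the 4 libraries, with circles for replicate 1, triangles for replicate 2 and bars for the mean of 2 libraries. Calca, Nppb, Npb and Gast lie lower with RDF and Adm, Nmb, Cck and Insl3 higher, and the RDF libraries of Gast lie at 0.311 and 1.37 FPKM.

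Of 19 peptidases that degrade small peptides, 18 were tested, 2 rose and 3 fell, beside 13.3% and 8.28% of all genes, with a median difference of 0.01. Prep, the proline-specific oligopeptidase, whose known substrates include TRH, measured 35.8 and 34.0 FPKM with DMSO and 23.1 and 23.8 FPKM with RDF and fell by 0.55 (SE 0.0597, limma adjusted p = 0.00349). Both RDF libraries were below both DMSO libraries, and the call was kept in all 11 alternative settings. Erap1, an aminopeptidase of the endoplasmic reticulum, fell by 0.79 (SE 0.123, limma adjusted p = 0.00924), and Mme, neprilysin, fell by 0.45 (SE 0.0681, limma adjusted p = 0.009). Dpp4, a dipeptidyl peptidase of the cell surface, rose by 0.81 (SE 0.109, limma adjusted p = 0.00624), and Ace, the angiotensin-converting enzyme, rose by 0.34 (SE 0.0682, limma adjusted p = 0.0203). Thop1 and Npepps, peptidases of the cytosol, were not called, at differences of -0.12 and 0.14. Of the 11 alternative settings, 4 lost the call of Ace, 2 that of Erap1, 2 that of Mme and 1 that of Dpp4. Without RDF replicate 1 the number called was 2, and without RDF replicate 2 it was 1, which was Prep.

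Of 26 genes of TRH receptor signalling and the thyroid axis, 10 were tested, and 4 were listed at 0 in all libraries. Of those tested, 1 rose and none fell, beside 13.3% and 8.28% of all genes, with a median difference of 0.15. The gene that rose was Plcb3, a phospholipase C that acts below receptors of this class, at 23.1 and 22.9 FPKM with DMSO and 33.4 and 35.1 FPKM with RDF (difference 0.55, SE 0.0589, limma adjusted p = 0.00332). It was called in all 11 alternative settings. Gna11, encoding a G protein subunit through which the TRH receptor signals, and Itpr3, an inositol trisphosphate receptor, were present at 24.3 and 23.3 FPKM with DMSO and were not called, at differences of 0.15 and 0.08. The signalling parts tested were thus measured in cells in which the receptor gene Trhr was listed at 0. Trhr2, another receptor gene of this list, measured 0.0794 FPKM in RDF replicate 1 and was listed at 0 in the other libraries.

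Among 24 substrates of the convertases, 18 were tested. Of these, 4 rose and 3 fell, beside 13.3% and 8.28% of all genes, with a median difference of 0.07. The genes that fell were all ligands or antagonists of the TGF-β family, to which Inhbb, Bmp7 and Bmp4 among those that rose also belong. Lefty2, a Nodal antagonist, measured 120.0 and 115 FPKM with DMSO and 1.15 and 1.19 FPKM with RDF and fell by 5.77 (SE 0.0649, limma adjusted p = 1.04e-06). Lefty1, its close relative, measured 20.4 and 21.5 FPKM with DMSO and 1.87 and 2.6 FPKM with RDF and fell by 2.77 (SE 0.12, limma adjusted p = 0.000291). How the counting divided reads between this pair of similar genes is not stated. Tgfb1 fell by 0.94 (SE 0.0968, limma adjusted p = 0.00308), and all 3 calls were kept in all 11 alternative settings.

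Inhbb, an activin subunit counted among those that rose, measured 0.344 ± 0.224 FPKM with DMSO and 1.68 ± 0.0214 FPKM with RDF (SD, n = 2 each). It passed the level filter through its RDF libraries, so no p is given for it. Bmp7 rose by 0.69 (SE 0.0964, limma adjusted p = 0.00718). Bmp4 and Notch1, named after their values were seen, rose by 0.54 and 0.56. Itga6 and Gdf3, an integrin and a TGF-β family ligand, were not called, at differences of 0.04 and 0.01. Without RDF replicate 1 there were 4 calls and without RDF replicate 2 there were 3, those of Lefty1, Lefty2 and Tgfb1.

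**Figure D3:**
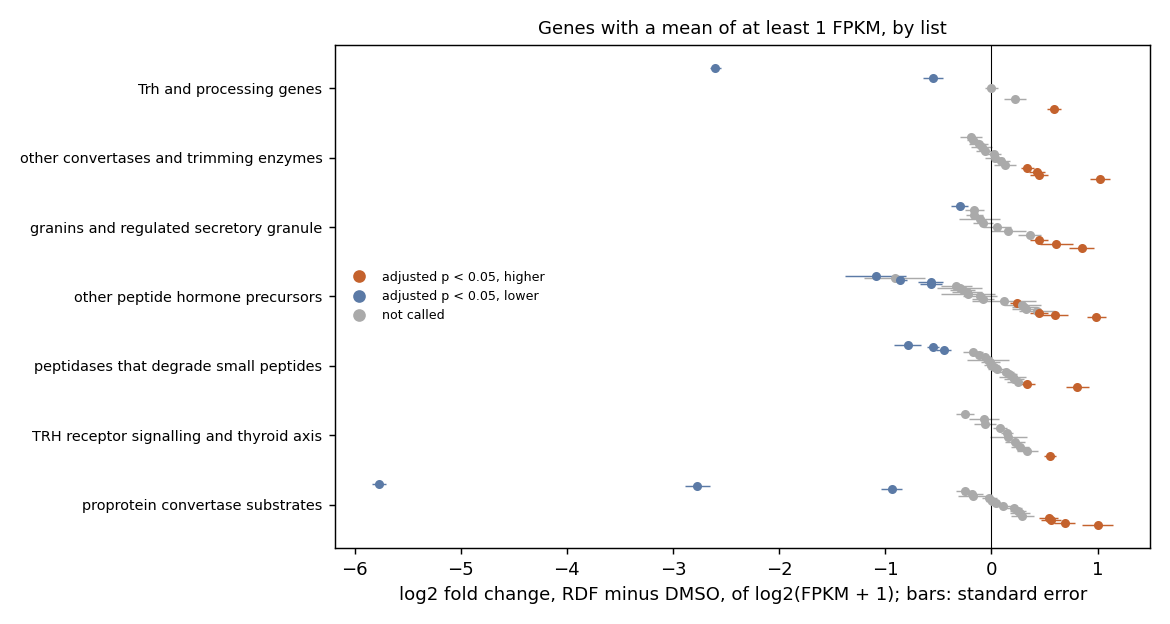
Log2 fold change, RDF minus DMSO, of log2(FPKM + 1) for the genes averaging 1 FPKM or more, each as a point with its standard error, in the 5 genes described above and in the 6 lists, coloured by the call at a limma adjusted p under 0.05. Trh lies at -2.60, Lefty2 at -5.77 and Lefty1 at -2.77, and every other gene drawn lies between -1.09 and 1.02.

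The levels over the 4 libraries were also compared between Trh and all other genes of the fit, by the Euclidean distance between their log2(FPKM + 1) values centred on each gene's mean. The median distance over 11732 genes was 2.63. Among the 5 genes at the smallest distance, Lefty1 lay at 0.284 and Hspa1a, an inducible heat shock protein gene with a near-identical copy whose share of the reads is uncertain, at 0.29. Hspa1a measured 30.0 and 29.0 FPKM with DMSO and 5.02 and 5.27 FPKM with RDF. Krt17, a keratin gene, lay at 0.594, with 47.9 and 45.9 FPKM with DMSO and 11.6 and 9.99 FPKM with RDF. These genes were lower with RDF without overlap, as the measure of likeness over only 4 libraries requires, and no test applies.

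**Figure D4:**
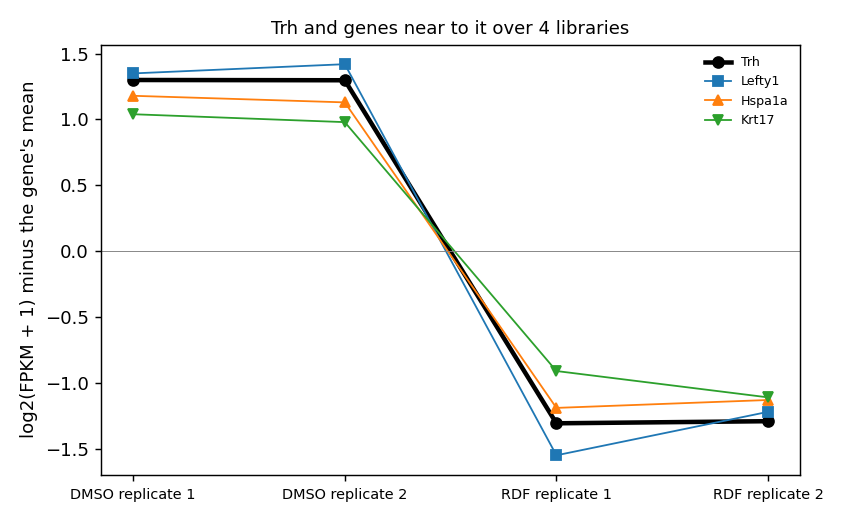
Log2(FPKM + 1) minus the gene's own mean in the 4 libraries for Trh (heavy black line) and for Lefty1, Hspa1a and Krt17, which are among the 5 genes nearest to it, with lines joining the values of 1 gene. Trh lies near 1.3 in both DMSO libraries and near -1.3 in both RDF libraries, and Lefty1, at a distance of 0.284, and Hspa1a, at 0.29, lie closer to it than Krt17, at 0.594.

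Marker lists give the identity of the cells beside these values. For the counts of markers that rose or fell, 13.3% of all genes in the fit rose and 8.28% fell. All 8 embryonic stem cell markers were measured, with Pou5f1, Sox2 and Nanog at 1250, 96.6 and 48.3 FPKM in the DMSO libraries and 985, 116 and 46.6 FPKM in the RDF libraries, as the label of the cells requires. The summed level of the 8 was 7750 to 7810 FPKM with DMSO and 4550 to 5020 FPKM with RDF. Most of that sum was Dppa5a, at 5490 and 5540 FPKM with DMSO and 3230 and 2840 FPKM with RDF. Of the 8, 4 fell, Dppa5a among them, and 2 rose, Sox2 and Zfp42. Of the 10 markers of neuroendocrine or neuronal cells, which are a known source of Trh, 4 were tested and 1 fell, Tubb3, with a summed level of 62.6 to 68.5 FPKM with DMSO and 38.4 to 40.5 FPKM with RDF. In that list Neurog3, Neurod1, Sim1 and Otp, transcription factors of such cells, were at or under 0.248 FPKM in every library. Insm1 measured 1.88 to 2.97 FPKM and was not called, and Isl1 measured 0.145 to 0.523 FPKM. Chga, the highest of the list after Tubb3, measured 8.94 to 10.5 FPKM, and Syp measured 1.32 to 1.95 FPKM. Neither Chga nor Syp was called. Tubb3, which is also expressed outside neurons, carried the difference of the sum, since the other 9 genes, taken without it after the values were seen, summed to between 13.8 and 15.0 FPKM in the 4 libraries, with overlap between the conditions. The labels' growth protocol places such cells on feeder cells, while the study's methods leave feeders out of most experiments and do not list RNA sequencing among the exceptions. Of the 10 feeder fibroblast markers 6 were tested and 4 fell, among them Col1a1, from a mean of 10.5 FPKM to 2.39 FPKM. Postn, also counted among those that fell, passed the level filter through its DMSO libraries, at means of 4.56 FPKM with DMSO and 0.69 FPKM with RDF. The 1 that rose was Dcn, from a mean of 1.57 FPKM to 7.04 FPKM. The summed level of this list was 37.0 to 38.1 FPKM with DMSO and 23.6 to 25.8 FPKM with RDF. Of the 8 primitive endoderm markers 3 were tested and 1 rose, Gata6, with a summed level of 14.8 to 15.2 FPKM with DMSO and 16.4 to 17.4 FPKM with RDF. The sums of the embryonic stem cell and feeder fibroblast lists were thus lower in both RDF libraries, as was Trh. Members of both lists went the other way, so neither sum describes a change shared by its list. The part of these lists in the level of Trh was not tested.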

How the data were processed

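RNA of 4 samples was made into libraries by the authors with a stranded mRNA kit from 150 ng of total RNA. The authors deposited FPKM per gene symbol, a unit scaled by them to depth and to transcript length. The submitters' processing notes name TopHat2 2.0.14, Bowtie2 2.1.0, Cufflinks 2.2.1 and the mouse assembly mm9. How reads matching several genes were counted is not given in the sources used here.

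Samples were grouped by their labels. Values were taken as log2(FPKM + 1), genes averaging 1 FPKM or more were kept, and RDF was compared with DMSO by limma 3.58.1 in R 4.3.3 (eBayes with its trend option), with Benjamini-Hochberg adjustment over 11733 genes and a threshold of 0.05. The fit was tested on simulated data. The genes and lists were chosen with earlier results of these data known. Besides the 9 genes, the text names from each list the called genes, up to the 5 with the largest change, the 2 most abundant genes not called, and the 5 genes nearest to Trh, of which some are not reported here. Depth was estimated from symbols with a transcript of at least 1500 bases. The 11 alternatives were another pseudocount, 2 other filters, 2 other scalings, no trend, a replicate block and leaving out each library.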

Additional observations from a re-analysis of the deposited data

How the results depend on the processing

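The difference of Trh was -2.65 with a pseudocount of 0.1, -2.63 with median-ratio scaling and -2.59 with quantile normalization, and it was called in all 11 alternatives. Cpe was called in all 11 as well (0.54 to 0.63), Pam in none of the 10 that kept it (0.15 to 0.30), and Furin, never called, lay between -0.04 and 0.02. Qpct lay between -0.63 and -0.46 and was called in 9. Trh was chosen from this same comparison and the others with earlier results known, so nothing is read from these calls.

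Over all genes, 1561 were higher and 972 lower. Without a filter on low values these counts were 942 and 606, and leaving out 1 library gave 253 to 1121 higher and 195 to 731 lower, the lowest without RDF replicate 2. The lone library is then assumed to vary like the others.

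By list, leaving out 1 library gave 1 to 4 calls of convertases and trimming enzymes, 0 to 3 of granins and granule genes, 2 to 6 of hormone precursors, 1 to 4 of peptidases and 3 to 7 of convertase substrates. Without the filter the granule list had 1 call, the precursors 2 and TRH receptor signalling 2. With a mean of at least 5 FPKM the granule list had 1, the precursors 5 and the peptidases 3. TRH receptor signalling had 2 calls with quantile normalization and 2 without the mean-variance trend. The cause of these changes was not tested.

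With the replicate number as a block, 1651 genes were higher and 1066 lower. Nothing in the labels says that the numbers pair the samples, and the deviations of same-numbered libraries had a Pearson r of 0.134 across genes over only 2 pairs. The block ended the calls of Ptprn and Adm among the called genes of the 6 lists. Genes under 1 FPKM rest on few fragments, which limits Pcsk1, Pcsk2 and Trhde most.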
